A study of Arabidopsis thaliana with 6 samples.

Results

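CCA1 (AT2G46830) and LHY (AT1G01060) are the morning MYB transcription factor genes of the Arabidopsis thaliana circadian clock, and the data show where the clock protein PRR7 was enriched on chromatin beside them. Listed regions were taken as belonging to a gene when their highest point, called the maximum here, lay inside the gene or within 3000 bp of it. This gave 6 regions of the 1563 in 4 deposited lists: 1 at each gene in each of the 3 lists of tagged PRR7, and 0 at either gene in the list of the untagged control. Each of the 6 had 1 peak line below it, at the same position as its maximum. All 6 maxima lay within 229 bp of the gene, and the nearest listed maximum outside the limit was 13085 bp away, at PRR9.

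The lists come from chromatin immunoprecipitation followed by sequencing (ChIP-seq) of whole seedlings collected 15 days old from plates kept on cycles of 12 h light and 12 h dark. For every sample the plates held 0.8% agar and 2% sucrose, and the light was 70 µmol per square metre per second. HA-PRR7 is the prr7-3 mutant carrying the transgene PRR7::HA-PRR7, in which the gene's own promoter drives PRR7 with an HA tag, in the single line 151, and it was immunoprecipitated (IP) with an anti-HA antibody in experiments 1 and 2. The untagged control is prr7-3 without the transgene, taken through the same anti-HA IP in experiment 1, so every sample carries prr7-3. The prr7-3 IP of experiment 2 and the input libraries of experiment 1 were not analysed here as samples of their own, and the sources used here do not give the hour of harvest. Experiment 2 has 2 deposited lists of the same HA-PRR7 sample, named KC and TL, which count as 1 replicate.

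CCA1 and LHY are closely related, partly redundant DNA-binding proteins whose transcripts peak around dawn and which repress genes of the evening. PRR9, PRR7 and PRR5 are pseudo-response regulators that appear in succession through the day and are known as repressors of CCA1 and LHY transcription. In a ChIP-seq experiment with tagged PRR7, sites where the protein sits on DNA directly or through partners appear as places where IP reads, called tags, pile up over the control.

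At CCA1, HA-PRR7 was enriched in both experiments over a stretch that lies mostly between CCA1 and its neighbour PSI-P (AT2G46820, also called CURT1B), the gene of a thylakoid membrane protein. The region ran over chr2:19245226-19245671 in experiment 1, chr2:19245184-19245740 in list KC and chr2:19245175-19245747 in list TL (TAIR10, as the lists give them). Its IP tags numbered 82 in experiment 1 (95% Poisson interval 65.2 to 101.8), 1054 in KC (interval 991 to 1119.6) and 1072 in TL (interval 1009 to 1138). These intervals, like the others given here, cover counting error only. The tags expected from the background, as the deposited tag enrichment implies, were 3.42 in experiment 1, 18.7 in KC and 19.3 in TL. All 3 IP counts therefore stood far above the expected number, with a deposited tag enrichment of 24.0 in experiment 1, 56.3 in KC and 55.4 in TL.

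At LHY the enrichment was smaller and was again present in both experiments, in the stretch between LHY and UMAMIT28 (AT1G01070), the gene of an amino acid transporter. The region ran over chr1:37782-38206 in experiment 1, chr1:37745-38256 in KC and chr1:37751-38270 in TL. Its IP tags numbered 29 in experiment 1 (95% Poisson interval 19.4 to 41.6), 299 in KC (interval 266 to 335) and 305 in TL (interval 272 to 341). The expected tags were 3.30 in experiment 1, 17.2 in KC and 17.5 in TL, which gave a tag enrichment of 8.79, 17.4 and 17.4 in the same order. LHY thus also stood above its expected tags in every HA-PRR7 list, and below CCA1 in each of them.

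**Figure D1:**
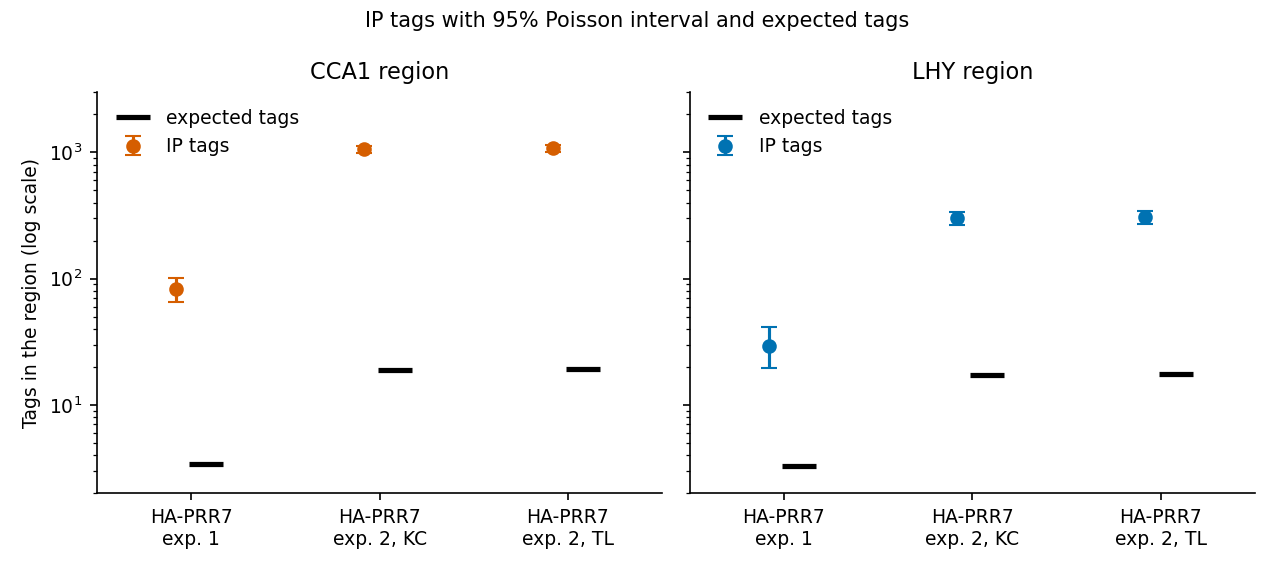
IP tags (points, with 95% Poisson intervals) and expected tags (black bars) in the CCA1 and LHY regions of the 3 HA-PRR7 lists, on a log scale. The IP tags of CCA1 (82, 1054 and 1072) and of LHY (29, 299 and 305) lie above the expected tags in all 3 lists, and no LHY interval reaches the CCA1 interval of the same list.

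The tag counts of KC and TL differed by 18 at CCA1 and by 6 at LHY. Because both lists come from 1 sample, they are not separate evidence for either region.

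The control tags in the same regions show what the listed control held there. In experiment 1 the control held 19 tags over the CCA1 region (95% Poisson interval 11.4 to 29.7) and 22 over the LHY region (interval 13.8 to 33.3). Per 300 bp this was 12.8 at CCA1 and 15.5 at LHY, beside a genome background of 15.3 control tags per 300 bp implied by the list. Over the whole region the control was therefore near or below this background at both genes. At the maximum alone the control signal was 1.51 at CCA1 and 0.209 at LHY. In experiment 2 the control was far thinner, with 0.856 tags per 300 bp in KC and 0.825 in TL. It held 1 tag at CCA1 and 0 at LHY in KC, and 0 at CCA1 and 1 at LHY in TL. A count of 0 to 1 cannot show whether the experiment 2 control was raised at these genes.

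In the authors' deposited fold enrichment, the IP signal at the maximum over the control signal, CCA1 stood at 26.7 in experiment 1, 125 in KC and 128 in TL. Ranked by this fold within each list, CCA1 was number 6 of 685 regions in experiment 1, number 1 of 380 in KC and number 1 of 355 in TL. LHY had a fold of 13.2 in experiment 1, 30.6 in KC and 31.7 in TL, and ranked 63, 14 and 14. The median fold was 10.2, 11.9 and 12.4 in these lists. CCA1 was therefore 2.62 times the median in experiment 1, 10.5 times in KC and 10.3 times in TL, and LHY was 1.29, 2.58 and 2.57 times the median. At CCA1 and LHY the experiment 2 fold rests on a control signal of 0 to 0.400 that the formula raises to 1, and is not on the scale of experiment 1.

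The lead of CCA1 in experiment 2 was wide. The next fold below it was 78.2 in KC and 86.2 in TL, both at BBX28 (AT4G27310), a B-box protein gene, with 615 and 638 IP tags. CCA1 had more tags than each other region of KC and TL beyond counting error (95% exact binomial interval of the ratio above 1). In experiment 1 the next fold above CCA1 was 28.7, again at BBX28, and the next below was 24.9, at AT5G47540. There the interval of the tag ratio held 1 for 8 other regions, and a further 7 had more tags than CCA1 beyond counting error. For LHY the interval held 1 for 58 other regions in experiment 1, 4 in KC and 3 in TL. A further 20, 10 and 8 regions of these lists had more tags than LHY beyond counting error. In the same order, 4, 1 and 2 regions had exactly its fold.

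The place of both genes in experiment 1 depended on the measure. CCA1 ranked 3 by the IP signal at the maximum, 12 by IP tags and 1 by tag enrichment. By IP tags per kb it ranked 2. LHY ranked 144 by IP signal, 29 by IP tags, 16 by tag enrichment and 397 by IP tags per kb, where its 68.2 tags per kb lay under the list median of 70.2. In KC and TL the rank of CCA1 was 1 by each of these measures, and LHY stayed between 9 and 20.

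**Figure D2:**
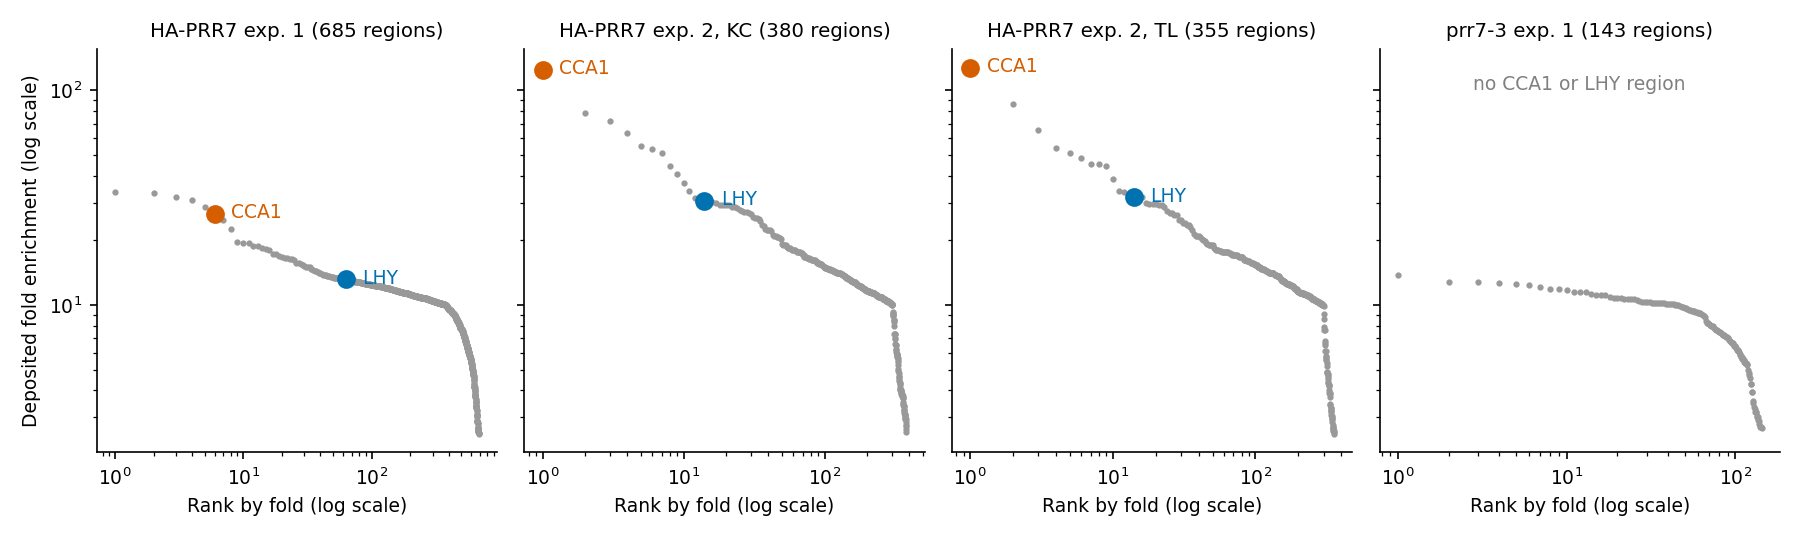
Deposited fold enrichment of every region against its rank within its list, on log scales, for the 3 HA-PRR7 lists and prr7-3, with CCA1 in orange and LHY in blue. CCA1 is number 6 in experiment 1 and number 1 in KC and TL, LHY is number 63, 14 and 14, and the prr7-3 panel holds neither gene.

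Untagged prr7-3 asks what the antibody brings down without the HA tag. HA-PRR7 experiment 1 had a region at both genes, whereas the prr7-3 list of experiment 1 had 0 regions at CCA1 and 0 at LHY among its 143. The prr7-3 regions nearest to these genes were 578 kb from CCA1 and 552 kb from LHY. The IP signal at the maximum was 40.2 at CCA1 and 13.2 at LHY in HA-PRR7 experiment 1, and the lowest IP signal listed in prr7-3 was 10.01. The genome background was 2.30 IP tags per 300 bp for HA-PRR7 and 3.61 for prr7-3 in experiment 1. A gene missing from a list had no call there, which is no measurement of its signal, and the tags of prr7-3 at CCA1 and LHY are not in the list. With 1 IP a list, no test between HA-PRR7 and prr7-3 was possible.

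CCA1 exceeded LHY in both experiments, by a ratio that varied with the measure. Both regions come from the same library, so depth cancels. CCA1 had 2.69 times the IP tags per kb of LHY in experiment 1 (95% exact binomial interval 1.74 to 4.27), 3.24 times in KC (interval 2.85 to 3.70) and 3.19 times in TL (interval 2.81 to 3.63). Each interval excludes equal density, and the wide experiment 1 interval holds the KC and TL values. The difference between experiments was not tested. The ratio of IP signals at the maximum was 3.05 in experiment 1, 4.08 in KC and 4.03 in TL. The ratio of deposited folds was 2.03 in experiment 1, 4.08 in KC and 4.03 in TL. In experiment 1 the control signal was 1.51 at CCA1 and 0.209 at LHY, and of these only the CCA1 value exceeds the 1 to which the formula raises lower controls.

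Both regions had the same layout, with the maximum in the gap between neighbouring genes and the edge inside the member gene. The gap between PSI-P and CCA1 is 449 bp long, and that between LHY and UMAMIT28 is 572 bp (gene table of assembly TAIR10.1). At CCA1 the region reached 81 bp into the gene in experiment 1, 150 bp in KC and 157 bp in TL, and 0 bp into PSI-P in all 3 lists. At LHY it reached 90 bp, 127 bp and 121 bp into the gene in the same order, and 0 bp into UMAMIT28. Of the region, the gap held 81.8%, 73.1% and 72.6% at CCA1 and 78.8%, 75.2% and 76.7% at LHY. The CCA1 region covered 81.3%, 90.6% and 92.7% of its gap, and the LHY region covered 58.6%, 67.3% and 69.8%. The gene table gives no strand, so these values do not say which side is upstream. In the standard annotation, given here as background, CCA1 starts at the end facing PSI-P and LHY starts at the end facing UMAMIT28.

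In experiment 1 the CCA1 maximum lay 229 bp from CCA1 and 221 bp from PSI-P, so PSI-P was the nearer gene by a few bases. In KC it lay 188 bp from CCA1 and 262 bp from PSI-P, and in TL 192 bp from CCA1 and 258 bp from PSI-P, so CCA1 was nearer. The position alone does not assign the region to one of these genes. Another gene, AT2G46810, was 2590 to 2631 bp away. The LHY maximum was nearer to LHY in each list, at 124 bp in experiment 1, 67 bp in KC and 62 bp in TL, against 449 bp, 506 bp and 511 bp to UMAMIT28.

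**Figure D3:**
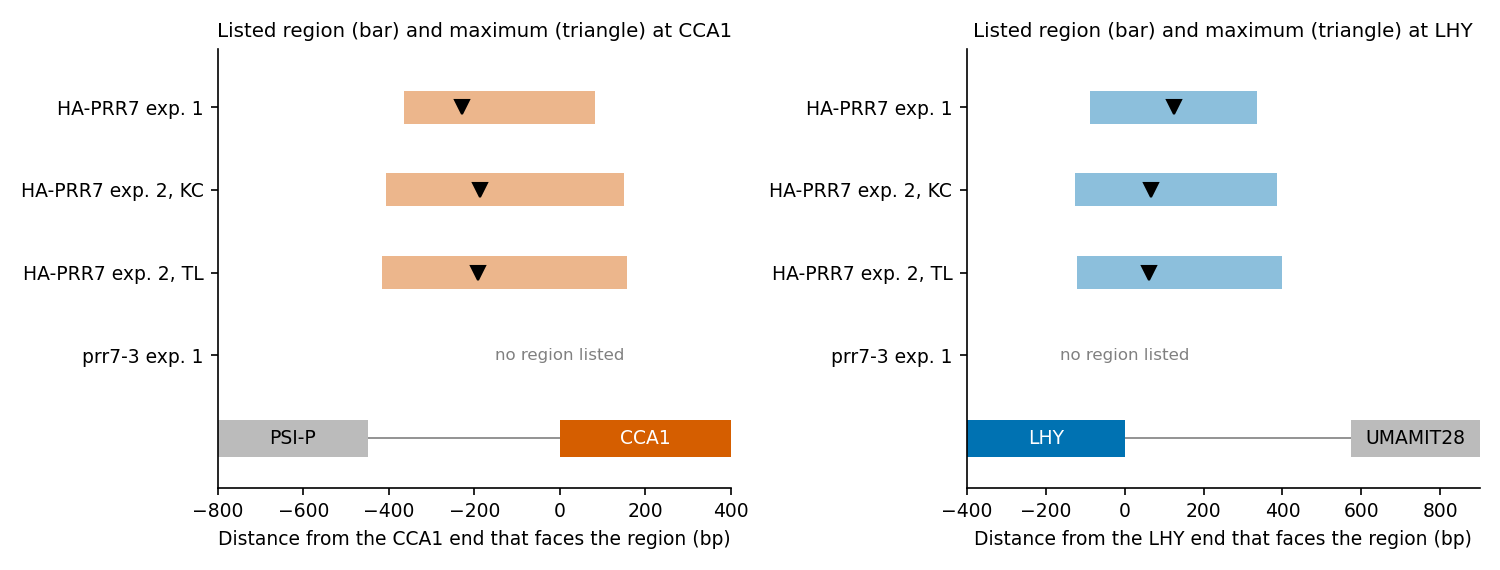
Listed regions (bars) and their maxima (triangles) in bp from the CCA1 or LHY end that faces the region, with the flanking genes drawn below as boxes cut at the panel edge. All 3 HA-PRR7 regions at each gene have their maximum in the gap and overlap the member gene by 81 to 157 bp, and prr7-3 has no region at either.

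The experiments placed the maxima within 62 bp of each other. In KC the CCA1 maximum was 41 bp, and in TL 37 bp, closer to CCA1 than in experiment 1. The LHY maximum was 57 bp closer to LHY in KC and 62 bp closer in TL. Both genes therefore had the experiment 2 maximum nearer to the gene. Over all regions paired between experiment 1 and KC the median difference was 23 bp (79 pairs), and over pairs with TL it was 23.5 bp (70 pairs). Of the KC pairs, 72.2% differed by no more than CCA1 did and 79.7% by no more than LHY did, and of the TL pairs, 65.7% and 85.7% did. KC and TL differed by 4 bp at CCA1 and 5 bp at LHY, beside a median of 4 bp over 295 pairs. The experiment 1 region lay wholly inside the KC and the TL region at both genes.

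**Figure D4:**
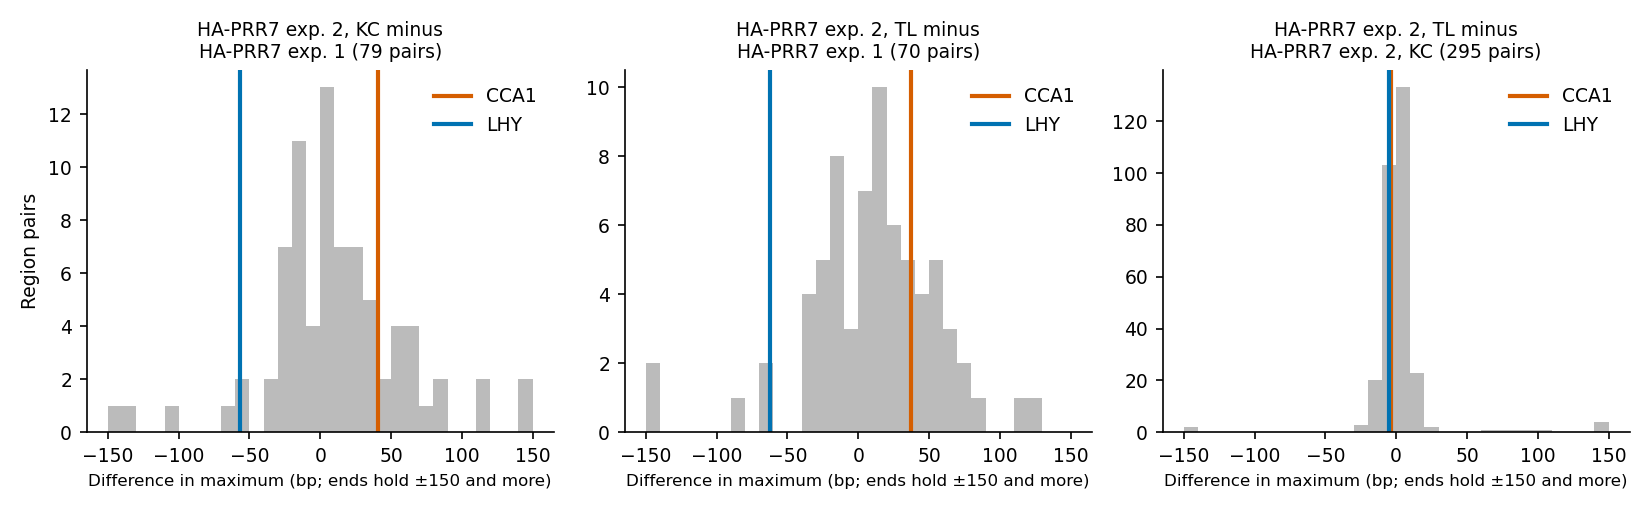
Histograms of the difference in the position of the maximum, in bp, for regions that pair between 2 lists, with CCA1 (orange line) and LHY (blue line). Between experiments the CCA1 maximum differs by 41 and 37 bp and that of LHY by -57 and -62 bp, inside the spread of the pairs, and KC and TL differ by 5 bp or less at both.

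Both regions were also wide. At CCA1 the width was 446 bp in experiment 1, 557 bp in KC and 573 bp in TL, which ranked 24, 20 and 21 by width. At LHY it was 425 bp, 512 bp and 520 bp, which ranked 26, 26 and 28. The median region was 135 bp in experiment 1, 267 bp in KC and 269 bp in TL. CCA1 alone held 0.875% of the IP tags in all listed regions of experiment 1, 2.73% of those in KC and 2.96% of those in TL, and LHY held 0.309%, 0.775% and 0.842%.

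Clock genes are compared in fold and tags, here and below, by the highest-fold region of each gene in a list. On that basis CCA1 had the most IP tags of the clock genes in every HA-PRR7 list. Of 28 clock genes, 13 had a region in experiment 1, 14 in KC and 13 in TL, against 5.01%, 2.9% and 2.71% of all 27444 nuclear protein-coding genes. KC and TL had 12 of them in common, against 2.34%. A region of experiment 1 that overlapped a region in KC and in TL and none in prr7-3 is called recurring here. Recurring regions lay at 10 clock genes, against 0.561% of all protein-coding genes: CCA1, LHY, the REVEILLE genes RVE1 and RVE7, PRR9, PRR5, GI, LUX, LNK2 and LNK3. In prr7-3 the count was 1 of 28, against 1.03% of all protein-coding genes, and that 1 was PRR7 itself. CCA1 and LHY are members of the list, and the list was chosen with results of these data known, so these shares describe it and test nothing.

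By fold, CCA1 was number 3 of the 13 clock genes in experiment 1, behind PRR9 (33.4), a relative of PRR7, and LNK3 (31.9), a clock coactivator gene. By tags CCA1 was number 1, at 1.64 times PRR9 with its 50 tags (95% exact binomial interval 1.14 to 2.38) and 1.17 times LNK3 with its 70 tags (interval 0.841 to 1.64), so its lead over LNK3 was within counting error. These ratios compare whole regions of unequal width, 446 bp at CCA1, 284 bp at PRR9 and 492 bp at LNK3. Per kb, CCA1 had 183.9 tags, PRR9 176.1 and LNK3 142.3, so by density CCA1 and PRR9 were nearly level. No interval was computed for these densities. In KC and TL CCA1 was number 1 by fold and by tags, and the interval of its tag ratio to each other clock gene lay above 1. LNK3 was next by tags, with 654 in KC and 656 in TL.

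LHY was number 6 of 13 clock genes by fold in experiment 1, number 7 of 14 in KC and number 6 of 13 in TL. By tags it was number 4, 6 and 5. The order in experiment 1 changed with tags per kb, where LHY had 68.2 over its 425 bp. It was then below RVE7 (101.0), LNK2 (97.4), GI (95.8), FKF1 (76.9) and PRR7 (71.9), besides CCA1, PRR9 and LNK3. It stayed above RVE1, LUX, RVE8 and PRR5. The comparisons below use tags not divided by width. In experiment 1 the tags of LHY did not differ beyond counting error from those of 5 of the other 12: GI (23 tags), a flowering and clock regulator, RVE7 (21 tags), LNK2 (19 tags), RVE8 (17 tags) and LUX (17 tags), a DNA-binding subunit of the evening complex. In experiment 2 this held for LUX alone, with 255 tags in KC (LHY over LUX 1.17, interval 0.989 to 1.39) and 263 tags in TL (1.16, interval 0.980 to 1.37). Places by fold could differ between the lists of this 1 sample. LUX had a fold of 25.1 in KC (0 control tags) and 8.63 in TL (1 control tag). PRR5 went the other way, with 9.17 in KC (1 control tag) and 20.9 in TL (0 control tags).

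**Figure D5:**
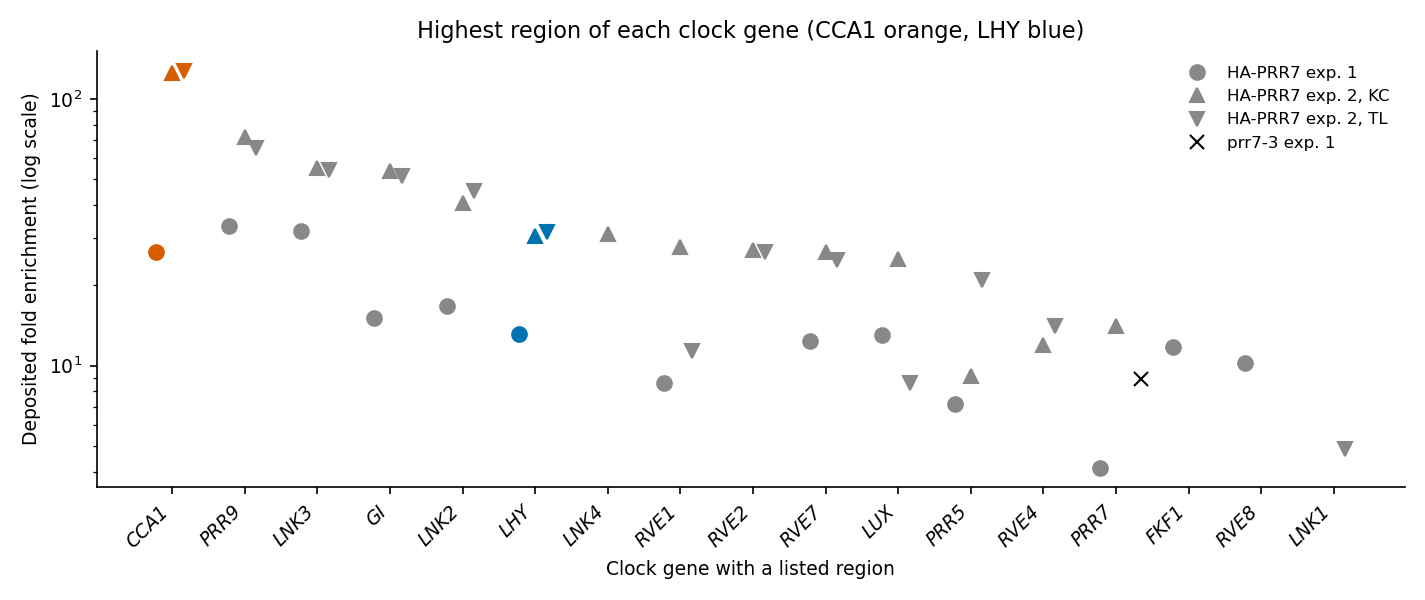
Deposited fold enrichment, on a log scale, of the highest region of each clock gene that had one, for the 3 HA-PRR7 lists and prr7-3 (cross), with CCA1 in orange and LHY in blue. CCA1 is highest in KC (125) and TL (128) and below PRR9 and LNK3 in experiment 1, LHY lies in the middle, and the only prr7-3 point is at PRR7.

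CCA1 and LHY belong to a family of 10 related MYB genes with RVE1 to RVE8. Of these, 5 had a region in HA-PRR7 experiment 1 (background 5.01%), 7 in KC (2.9%) and 7 in TL (2.71%), against 0 in prr7-3 (1.03%). The 7 were the same genes in KC and TL. Recurring regions lay at 4 of the 10, against 0.561% of all protein-coding genes: CCA1, LHY, RVE1 and RVE7. With each region given to its nearest gene only, the count was 2, LHY and RVE7, and the experiment 1 region of CCA1 went to PSI-P. Taking the highest-fold region of each gene, CCA1 and LHY led the family by fold and by tags in each HA-PRR7 list. Per kb of region they also led in KC and TL. In experiment 1 the RVE7 region, 208 bp wide, had 101.0 tags per kb, above the 68.2 of the 425 bp LHY region.

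The highest-fold region of each RVE gene held fewer tags than LHY in each list where it had one. In experiment 1 the difference was within counting error for RVE7 and RVE8. Values below are for that region, and further regions of the same gene were not compared with LHY. RVE7, named EPR1 in the gene table, had its maximum inside the gene, with 21 tags in experiment 1, 144 in KC and 134 in TL. The RVE1 region was 2351 bp from the gene in experiment 1, with 10 tags and a fold of 8.61. In experiment 2 RVE1 had 3 regions in KC, the highest with 146 tags and a fold of 27.8 at 1863 bp, and 3 in TL, the highest by fold with 44 tags and a fold of 11.3 at 2358 bp. RVE8, an activator of evening genes, had a region in experiment 1 only, with 17 tags and a fold of 10.2. RVE4 (68 tags in KC and 70 in TL), RVE3 (139 and 141) and RVE2 (142 and 212) had regions in experiment 2 only. The RVE3 maximum lay where RVE3, named ASG4 in the gene table, overlaps AN, and the highest RVE2 region was 2722 bp from the gene in KC and 2717 bp in TL. RVE5 and RVE6 had no region in any list.

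PRR9 and CCA1 are close neighbours on chromosome 2. Their maxima in experiment 1 were 12856 bp apart, and no listed region lay between them in any HA-PRR7 list, since PRR9 was the nearest region to CCA1 outside the limit in each. The PRR9 region had 50 tags in experiment 1, 381 in KC and 378 in TL. LHY stood alone. The nearest other listed maximum was 82710 bp from LHY in experiment 1, with 15 tags, and 152559 bp away in KC and 152564 bp in TL, at the RVE3 region.

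The recurring regions most like CCA1 were found by the summed absolute difference of log2 rank over the 3 HA-PRR7 lists, where 0 means the same ranks. The nearest was BBX28 (2.26; ranks 5, 2 and 2), followed by PRR9 (4.75; ranks 2, 3 and 3), LNK3 (AT3G12320, 5.32; ranks 3, 5 and 4), GI (7.28; ranks 31, 6 and 5) and AT5G15950 (7.85; ranks 9, 22 and 7). Of these, 3 are clock genes from the list above. The 70 recurring regions as a whole lay at 10 clock genes, CCA1 and LHY included. For LHY the nearest were AGL44 (2.18; ranks 105, 8 and 9), a MADS-box gene, and AT5G24130 (2.53; ranks 50, 28 and 32). Next came chr1:15880355-15880577, with no protein-coding gene within 3000 bp (2.66; ranks 328, 17 and 14). ATCSLA09 (2.93; ranks 308, 18 and 17) and RVE7 (2.95; ranks 106, 30 and 30) completed the 5. Ranks of KC and TL come from the same sample, and this likeness is a description of 2 IPs.

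Among the 70 recurring regions, CCA1 was number 5 by fold and number 2 by IP tags in experiment 1. LHY was number 23 by fold and number 8 by tags.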

How the data were processed

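Per the submitters' processing notes, Bowtie was used with the TAIR10 genome. The sources used here do not give its version, the peak caller or the control library. Each of the 4 deposited lists, 1 per sample except 2 for HA-PRR7 experiment 2, gives per region the IP and control signal at the maximum, a fold enrichment, and whole-number tag counts in both libraries. The deposited fold equalled IP over control signal, the control raised to 1 where lower, in 100% of regions within 1%. Signal, fold and enrichment scores are the authors' own and were used within a list.

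Libraries' depth was read from the lists: expected tags (IP tags over tag enrichment) matched, within 1% in 100% of regions, the larger of 2 values: control tags after scaling, and an even background over 300 bp or more. This even background was 10.1 IP tags per 300 bp in KC and in TL.

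Genes came from a RefSeq table of TAIR10.1 (27444 nuclear protein-coding genes), whose nuclear coordinates were taken as those of TAIR10. Only region coordinates are printed. Intervals are exact at 95% (Poisson, or conditional binomial for ratios), made with scipy 1.17.1 and pandas 2.3.3 in Python 3.11.15, and distance assignment and interval coverage were tested on simulated data. Named genes were the 2 members, genes nearest their maxima, the 5 recurring regions most like each in rank, and clock and MYB list members with a region; neighbours in rank, RVE5 and RVE6 were named after their values were seen. Members and lists were chosen with earlier results of these data known. Alternatives were other distances, ranks and ratios, nearest gene, summit matching and left-out replicates. Nothing says the experiments used separately grown plants. The planned promoter motif search was not run, since no sequence was at hand.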

Additional observations from a re-analysis of the deposited data

How the results depend on the processing

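Of 79 values under other settings, for 15 results, 59 kept their place or stayed within 1.5 times (for ratios, within the counting interval) and 20 moved; none turned round. Ranking by IP tags per kb or tag enrichment, and assigning the members' regions to the nearest gene only, were chosen after the data were seen. Every move of a rank but 2 was in experiment 1, where CCA1, number 6 by fold, was 12 by IP tags, 3 by IP signal, 3 by q value, 2 by IP tags per kb and 1 by tag enrichment. LHY, number 63, was 29, 144, 37, 397 and 16 by the same measures. In TL, LHY was 9 by IP tags and 9 by tag enrichment in place of 14. The CCA1 to LHY ratio was 4.08 by signal and 4.08 by fold in KC, and 4.03 by signal and 4.03 by fold in TL, above the tag-based intervals. With the nearest gene only, CCA1 kept 2 of 3 HA-PRR7 lists, since experiment 1 went to PSI-P, and recurring regions lay at 2 MYB genes (LHY and RVE7) in place of 4 and at 7 clock genes in place of 10. With HA-PRR7 replicates left out singly (leave-one-out) there were 1 to 2 lists at CCA1 and 1 to 2 at LHY, 5 to 7 MYB genes and 12 to 13 clock genes, fewer or unmatched lists entering by construction. Without replicate 1, 7 MYB genes had a region in KC and TL. Why the ranks moved was not tested. No paired analysis was possible because each list is 1 IP with no model over replicates. Depth limits experiment 1, with 29 tags at LHY, and the thin control limits folds in experiment 2.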

Other observations

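Tag density and tag number placed the genes differently. In HA-PRR7 experiment 1, LHY held 2.9 times the tags of the median region over a region 3.15 times as wide, with 68.2 IP tags per kb. CCA1 held 8.2 times the median tags over a region 3.30 times as wide, with 183.9 tags per kb. In KC and TL, LHY had 584 and 587 tags per kb, beside list medians of 296 and 294.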
